A study of Mus musculus with 108 samples.

Results

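The 9 loci described here are those of the AP-1 transcription factor genes Fos, Fosb, Fosl1, Fosl2, Jun, Junb, Jund, Batf and Atf3 of the mouse. Each locus was taken as the gene body in the GENCODE annotation of mm10 plus 100 kb on each side, and every listed reporter fragment that overlapped such a window was counted as a member of it. These are 9 of 21938 windows drawn in the same way around all protein-coding genes. The windows held 5971 of 1176712 distinct fragments, or 0.507%, and these fragments merged by overlap into 218 of 76144 sites. No site was shared between windows, although the Fos and Batf windows lie side by side on chromosome 12 with a gap of 9395 bp between them.

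The fragments come from an enhancer screen in HM-1 cells, a mouse embryonic stem (ES) cell line. Pieces of open chromatin, cut out with the Tn5 transposase from cells of each of 5 stages of in vitro blood development, were cloned in front of a minimal HSP68 promoter and a Venus-YFP reporter, and the plasmid library of each stage was integrated at the Hprt locus. The carrier cells were differentiated to the stage the library was made from: ES cells, the FLK1+ hemangioblast (HB), the early hemogenic endothelium (HE1; KIT+ TIE2+ CD41-), the late hemogenic endothelium (HE2; KIT+ TIE2+ CD41+) or blood progenitors (HP; KIT+ TIE2- CD41+). Sorting by YFP gave 4 gates, named Negative, Low, Medium and High, in replicates 1 to 4, whereas replicate 5 had a joint Medium/High gate in place of the last 2. All sorted groups carry the reporter, and every gate other than Negative is called positive below. The HM-1 PCR control lists, used for 1 comparison below, are the exception. The paper describes its negative controls as wild-type cells into which no reporter cassette was integrated. Because each stage has its own plasmid library, stage and library cannot be told apart in any comparison between stages.

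The 95 sorted lists differed widely in depth, from 504 to 131091 fragments. The median list held 60062.5 fragments in replicate 1 and 41608 in replicate 2, against 1948, 1725 and 1112 in replicates 3, 4 and 5. A value such as 5 fragments per 10000 therefore rests on many fragments in the first 2 replicates and on 1 or none in most lists of the others. Some lists shared fragments: the HE1 Negative list of replicate 1 and Medium list of replicate 2, and the HE1 Negative list of replicate 3 and Low list of replicate 4, held 49.2% to 83.0% of each other's fragments, and the HB Medium and HP High lists of replicate 2 shared 57.4% and 54.1%. Over all lists but these 4 of HE1, each set against the list it shared most with, the median was 24.9% and the highest 63.3%, that of the short HP Negative list of replicate 3 with the HE1 Low list of replicate 4. In the 4 comparisons with HE1, the main setting called no window or site, and leaving out the 4 HE1 lists called none either. There was thus no call to lose, and the other settings were not refitted without these lists. The unit used throughout is distinct fragments per 10000 listed fragments of the same stage, replicate and gate class. The lists hold coordinates only, so a fragment counts once per list however many cells or reads it came from.

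AP-1 is a family of dimers of basic leucine zipper proteins. FOS-type proteins (FOS, FOSB, FOSL1 and FOSL2) do not pair with each other and bind DNA as partners of JUN-type proteins (JUN, JUNB and JUND), whereas BATF lacks a transactivation domain and ATF3 also pairs with cyclic AMP response factors. The dimers bind the letters TGACTCA, and JUN-ATF dimers also bind the cyclic AMP response element (CRE), TGACGTCA. Fos, Fosb, Junb and Atf3 are immediate early genes, which are transcribed within minutes of a growth factor or stress signal, in part through the serum response factor bound to CArG boxes. Jund is expressed in most cells at rest. In early blood development AP-1 works beside the TEAD, ETS, GATA and RUNX factors.

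Sequences of 7 sites are shown because the results below turn on them. The first 3 lie around Fos: its largest distal site, its other large distal site and a site listed at HE1 and HE2 only. The site next to the 3' end of Junb, a Junb site with AP-1 matches, the Fosb start and the Fosl2 site listed at HB and HE1 only follow. Each run is taken from the mm10 (GRCm38) reference, plus strand, at the position that most distinct positive fragments covered, and capitals mark a match to the AP-1 letters, the CRE or a CArG box (CC, 6 of A or T, GG) on either strand.
Fos 18.5 kb upstream, chr12:85455211-85455510: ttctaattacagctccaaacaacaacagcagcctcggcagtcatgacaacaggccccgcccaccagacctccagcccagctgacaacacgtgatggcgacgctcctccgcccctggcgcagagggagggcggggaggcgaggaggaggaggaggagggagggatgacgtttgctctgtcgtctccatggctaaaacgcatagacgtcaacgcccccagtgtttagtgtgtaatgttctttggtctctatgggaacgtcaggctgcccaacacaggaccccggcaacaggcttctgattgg
Fos 12.2 kb downstream of the start, chr12:85485926-85486225: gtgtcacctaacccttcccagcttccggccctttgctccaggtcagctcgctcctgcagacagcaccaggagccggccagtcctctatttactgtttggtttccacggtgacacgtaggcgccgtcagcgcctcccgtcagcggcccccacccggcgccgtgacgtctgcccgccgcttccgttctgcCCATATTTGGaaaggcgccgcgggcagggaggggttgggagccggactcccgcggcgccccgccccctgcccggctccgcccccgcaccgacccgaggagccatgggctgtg
Fos 18.3 kb downstream of the start, chr12:85492081-85492380: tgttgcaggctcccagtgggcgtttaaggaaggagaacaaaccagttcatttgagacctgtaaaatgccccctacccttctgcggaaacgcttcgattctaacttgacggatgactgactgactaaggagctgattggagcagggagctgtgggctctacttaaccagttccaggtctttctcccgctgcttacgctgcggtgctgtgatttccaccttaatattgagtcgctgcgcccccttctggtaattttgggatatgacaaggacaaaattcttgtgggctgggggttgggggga
Junb 2.1 kb downstream of the start, chr8:84976473-84976772: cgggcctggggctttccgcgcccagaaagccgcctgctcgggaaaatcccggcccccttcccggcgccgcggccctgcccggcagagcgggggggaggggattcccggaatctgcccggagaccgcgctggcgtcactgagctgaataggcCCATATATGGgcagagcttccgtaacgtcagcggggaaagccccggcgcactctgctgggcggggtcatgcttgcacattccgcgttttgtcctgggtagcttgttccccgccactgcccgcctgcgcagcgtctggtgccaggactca
Junb 7.1 kb upstream, chr8:84985684-84985983: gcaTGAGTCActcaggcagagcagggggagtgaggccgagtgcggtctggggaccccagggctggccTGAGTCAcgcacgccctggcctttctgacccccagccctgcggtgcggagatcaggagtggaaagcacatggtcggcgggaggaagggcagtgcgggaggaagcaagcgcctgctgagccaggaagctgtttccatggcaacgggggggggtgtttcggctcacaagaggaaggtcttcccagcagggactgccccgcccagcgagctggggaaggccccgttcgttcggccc
Fosb 0.3 kb upstream, chr7:19310164-19310463: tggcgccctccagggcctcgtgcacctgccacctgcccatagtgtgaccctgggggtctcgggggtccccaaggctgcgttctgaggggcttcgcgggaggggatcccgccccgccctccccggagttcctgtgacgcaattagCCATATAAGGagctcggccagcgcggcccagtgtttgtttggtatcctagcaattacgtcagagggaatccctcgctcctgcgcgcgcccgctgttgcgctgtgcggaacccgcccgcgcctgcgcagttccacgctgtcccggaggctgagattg
Fosl2 2.7 kb upstream, chr5:32132966-32133265: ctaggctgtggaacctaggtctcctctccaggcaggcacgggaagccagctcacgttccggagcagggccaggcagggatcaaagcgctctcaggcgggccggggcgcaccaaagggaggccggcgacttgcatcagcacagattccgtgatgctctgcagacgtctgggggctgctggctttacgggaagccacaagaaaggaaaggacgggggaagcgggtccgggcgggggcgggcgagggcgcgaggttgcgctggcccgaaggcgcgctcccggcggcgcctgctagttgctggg

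**Figure D1:**
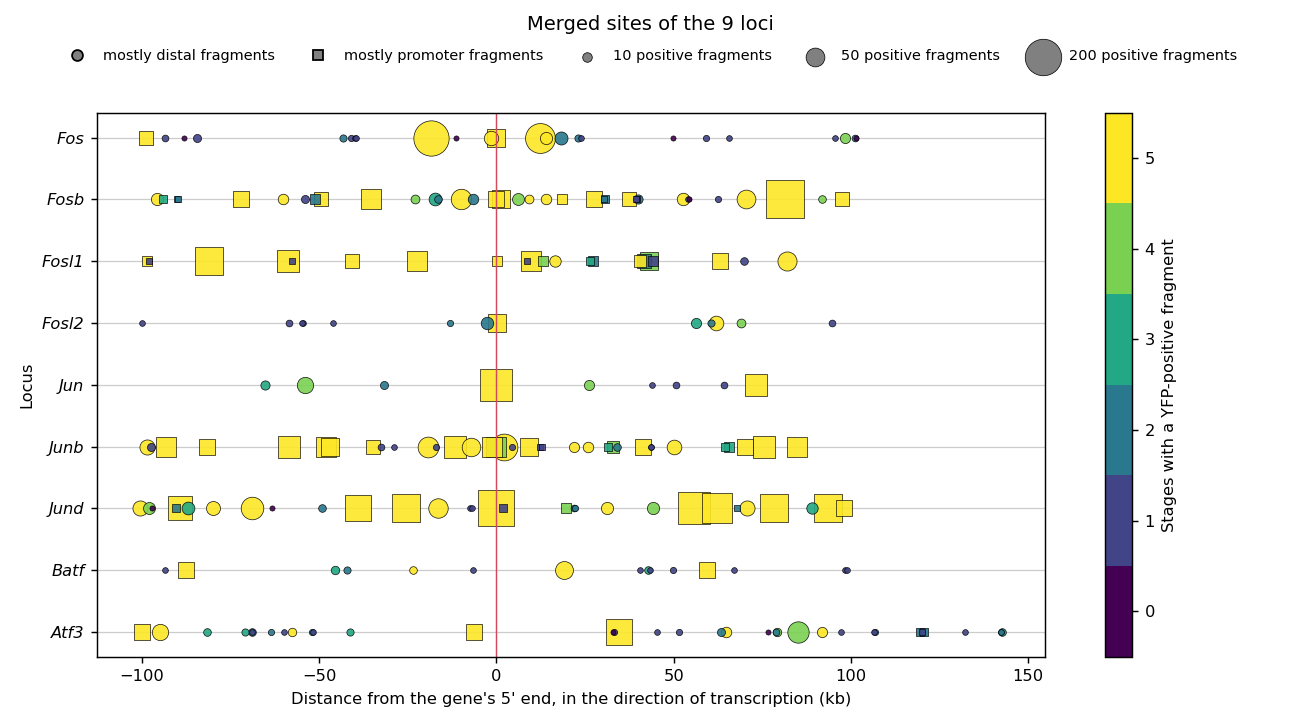
Each row is a locus and each symbol a merged site, placed by the distance in kb of its most covered position from the gene's 5' end; symbol area grows with the number of distinct positive fragments, colour gives the number of stages (0 to 5) with a positive fragment, and circles and squares are sites of mostly distal and mostly promoter fragments. Fos has a pair of large distal sites, at 18.5 kb upstream and 12.2 kb downstream of its start, while the large symbols of Fosl1 and Jund are mostly squares.

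The Jund and Junb loci held the most fragments. Jund (chr8:70698949-70700616, plus strand) had 1381 distinct positive fragments in 30 sites, more than 99.9% of all protein-coding windows, and Junb (chr8:84974484-84978718, minus strand) had 1100 in 35 sites, at percentile 99.2. Fosb (chr7:19302696-19310051, minus strand) had 814 in 36 sites, Fosl1 (chr19:5447547-5455946, plus strand) 589 in 21 sites and Fos (chr12:85473890-85477273, plus strand) 508 in 24 sites. Atf3 (chr1:191170296-191218039, minus strand) had 379 in 35 sites and Jun (chr4:95049034-95052222, minus strand) 299 in 9 sites. Batf (chr12:85686669-85709087, plus strand) had 145 in 15 sites and Fosl2 (chr5:32135801-32157842, plus strand) 135 in 13 sites. The median window of all genes held 187, so that Batf and Fosl2 were below it and the other 7 loci above.

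Per 100 kb of window, the order of the loci was Jund, Junb, Fosb, Fos, Fosl1, Atf3, Jun, Batf and Fosl2. Averaged over the 5 stages in each replicate, Jund had 7.08 ± 0.583 positive fragments per 10000 per 100 kb (SD, n = 5), Junb 4.84 ± 0.608, Fosb 3.85 ± 0.964, Fos 2.41 ± 0.786, Fosl1 2.04 ± 0.569, Atf3 1.33 ± 0.248, Jun 1.13 ± 0.411, Batf 0.642 ± 0.471 and Fosl2 0.520 ± 0.186. This mean gives shallow replicates the same weight as deep ones; pooled over replicates the order was the same except that Fosl1, at 2.60, came before Fos, at 2.46. The 5 replicates of Jund, from 6.65 to 8.09, did not overlap those of Junb, from 4.13 to 5.47, and the lowest replicate of Fosl1, at 1.58, was just above the highest of Atf3, at 1.57. The other neighbours in the order overlapped. These levels include fragments of other genes in the same window, and how much of each locus such genes hold differed widely.

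Fos was the locus whose fragments were most often distal, meaning listed by the study as over 1.5 kb from a transcription start. Of its positive fragments 82.9% were distal, against 33.7% of all positive fragments. In Fosl2 the share was 63.0%, in Batf 51.7% and in Atf3 50.9%, whereas it was 33.8% in Fosb, 30.2% in Junb, 23.7% in Jun, 23.0% in Jund and 12.4% in Fosl1. In the windows of Fosl1, Junb, Jund and Fosb, 76.9%, 59.5%, 57.3% and 56.1% of the positive fragments lay in sites over the start of another protein-coding gene. In Fos this share was 5.91% and in Fosl2 0%.

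A pair of distal sites carried most of the Fos locus. The site 18.5 kb upstream of the start (chr12:85454943-85455919, between genes, 17971 bp from the nearest protein-coding start, which is that of Fos) held 187 distinct positive fragments, 36.8% of the locus, and ranked at 11 among the 58910 sites of the series with a distal fragment. Positive fragments of it were listed in 18 of the 25 combinations of stage and replicate and in all 5 replicates. Pooled over replicates and corrected for the fragments of the stage, it had 2.25 fragments per 10000 at ES (45 fragments), 2.2 at HB (57), 1.83 at HE1 (74), 1.74 at HE2 (56) and 2.04 at HP (51). The Negative cells of the same stages had 2.29, 1.96, 2.16, 2.69 and 2.21. The site was thus listed at every stage, and the Negative rate was the higher one at 4 of 5 stages.

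The other large Fos site, 12.2 kb downstream of the start (chr12:85485490-85486629, between genes), held 133 positive fragments and ranked at 55 among distal sites. It was listed in 20 of the 25 combinations, at 1.30, 1.5, 1.38, 1.15 and 1.24 per 10000 from ES to HP, and in Negative cells at 1.37, 1.15, 1.11, 1.21 and 1.43. Its most covered stretch, shown above, holds a CArG box, CCATATTTGG. Together both sites made up 63.0% of the positive fragments of the locus. The site over the Fos start (chr12:85473387-85474344) added 48 positive fragments, or 9.45%, and it too holds a CArG box. Its pooled rate was 0.900 per 10000 at ES and 0.239 at HP, and over the 5 replicates 1.52 ± 1.78 at ES and 0.0817 ± 0.118 at HP.

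Among the JUN-type loci the share of the gene's own start differed widely. The site over the Jun start (chr4:95051737-95052810), a gene that takes part in its own regulation through AP-1, held 161 positive fragments, 53.8% of its window, with pooled rates of 1.60, 1.31, 1.65, 1.53 and 1.56 per 10000 from ES to HP. This Jun site has no match to the AP-1 letters, the CRE or a CArG box. The site over the Jund start (chr8:70698428-70699404) held 186, or 13.5% of its window, with 2.45, 2.16, 1.58, 2.24 and 1.36 per 10000, and it contains a CRE. The site over the Junb start (chr8:84978168-84979187) held 61, or 5.55%. The largest site of the Junb window was distal: it lay 2.1 kb downstream of the start, over the end of the gene (chr8:84976186-84977092, 3' UTR of the coding transcript and the exon of a second, noncoding transcript), and held 106 positive fragments in 20 of 25 combinations. Its pooled rate was 1.00, 0.771, 0.962, 0.996 and 1.20 per 10000 from ES to HP, and the printed stretch of it holds the CArG box CCATATATGG. A distal site 7.1 kb upstream of Junb (chr8:84985234-84986291, between Junb and Hook2), with 49 positive fragments, holds 4 AP-1 matches, 2 of them in the stretch shown above. In the Jund window the site with most positive fragments (89) that was listed as distal in any library lay 89.4 kb upstream, 244 bp from the start of Ssbp4, but 21.8% of its fragments were distal. The largest wholly distal site lay 69.1 kb upstream, over Gdf15, with 74.

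In the remaining FOS-type loci, the largest site of the Fosb window lay over the start of Opa3, a mitochondrial protein gene, with 211 positive fragments. The start of Fosb itself (chr7:19310004-19310733), whose printed stretch holds the CArG box CCATATAAGG, had 32, and the distal sites 10.0 kb upstream (chr7:19319661-19320285) and 70.5 kb downstream (an Opa3 intron) had 60 and 50. The largest site of the Fosl1 window, over the start of Banf1, had 119, and its largest distal site, 81.9 kb downstream between genes, 52. No site over the annotated 5' end of Fosl1, Batf or Atf3 was listed, although a site with 13 positive fragments lay 0.3 kb downstream of the Fosl1 start. For Atf3 the largest site of the window (103 positive fragments) was at a start 34.5 kb inside the gene model, and not over the start of another protein-coding gene. Atf3 distances are counted from the 5' end of the gene model, so the absence of a site there does not mean that all Atf3 starts lack one. Fosl2 had 50 fragments over its start (chr5:32135794-32136571) and 29 at a site 62.1 kb downstream (chr5:32197260-32198315). The largest site of the Batf window was in an intron of Batf 19.0 kb downstream of its start (chr12:85705073-85706190), with 45, and the largest distal site of Atf3 lay 84.9 kb downstream between genes (chr1:191132544-191133486), with 66.

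Positive cells were next compared with Negative cells. The study's own criteria were others: a peak counted as positive where it overlapped any positive fragment, and its activity level came from the ratio of high to low gate fragments. No difference in abundance between positive and Negative cells was detectable for any of the 9 loci at any stage. Pooled over replicates, the rate in positive cells was above that in Negative cells in 25 of 45 pairs of locus and stage, with a median ratio of 1.03 and a range from 0.677 (Atf3 at HB) to 1.90 (Batf at HE2). In the limma test on log2(rate + 1) of 5 positive against 5 Negative lists, none of the 9 loci passed an adjusted p of 0.05 at any stage, and neither did any other window (0% of 17436 to 18050 windows tested per stage; 197 to 454 of them had an unadjusted p under 0.05). The median log2 change over all windows was itself above 0, at 0.17, 0.16, 0.13, 0.25 and 0.08 from ES to HP, and that of the 9 loci was 0.08, 0.21, 0.38, 0.09 and -0.08. In counts simulated for this comparison at HE1, windows left unchanged also had a median above 0. It was 0.15 with 5 replicates and 0.01 with replicates 1 and 2 alone. The medians are therefore not read as enrichment in positive cells. Of the positive fragments of the loci 27.4% were also listed in Negative cells, against 27.3% of all positive fragments.

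**Figure D2:**
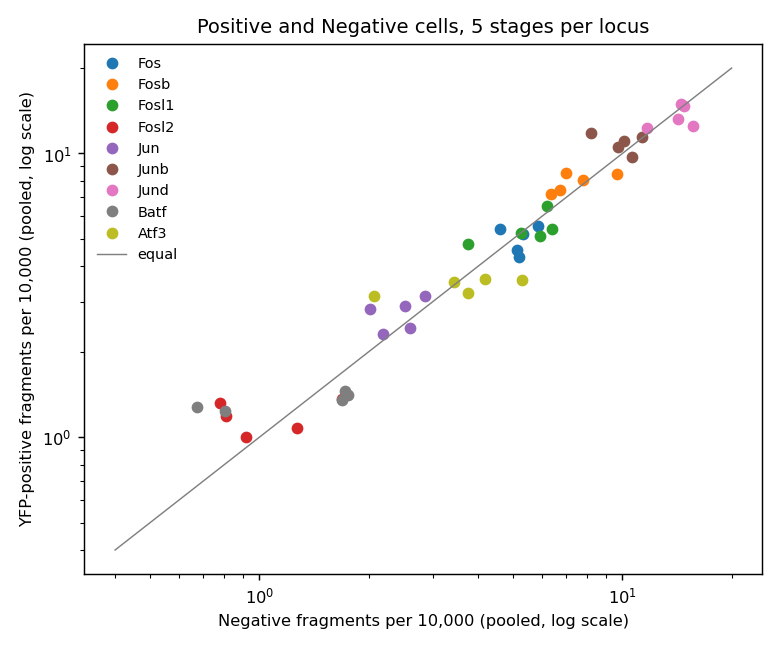
Each point is a locus at 1 of 5 stages, with the Negative fragments per 10000 on the x axis and the positive fragments per 10000 on the y axis, both pooled over replicates and on log scales; the line marks equal rates. The points lie along the line, and the ratios run from 0.677 to 1.90.

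With all 5 replicates, the largest log2 change of a locus between positive and Negative cells was that of Jund at HP. Its positive lists held 12.9, 13.4, 21.7, 3.57 and 20.0 fragments per 10000 in replicates 1 to 5, and its Negative lists 16.7, 17.4, 0, 5.05 and 0. The positive mean of 14.3 was higher than the Negative mean of 7.81, with a log2 change of 1.56 ± 0.65 (SE; limma adjusted p = 1.00). The ranges overlapped, and in the first 2 replicates, which hold most fragments, the positive lists were the lower ones: with these alone the log2 change was -0.35. Fosb at HP was the pair of locus and stage in which positive was above Negative in all 5 replicates: 8.12, 8.86, 8.67, 10.7 and 20.0 against a mean of 5.29 ± 3.10, for a log2 change of 1.21 ± 0.65 (limma adjusted p = 1.00).

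Between adjacent stages no change of a locus in positive cells was detectable. Pooled over replicates, the highest stage exceeded the lowest by 1.15-fold in Atf3, 1.17-fold in Batf, 1.18-fold in Fosb, 1.21-fold in Jund and Junb, 1.29-fold in Fos, 1.35-fold in Jun and 1.36-fold in Fosl1 and Fosl2. Fos, for example, went from 5.55 at ES over 5.40, 5.21 and 4.58 to 4.31 at HP. By replicate, Fos was at 5.8, 4.94, 5.49, 1.94 and 9.15 in ES and at 4.5, 3.90, 4.33, 7.13 and 4.45 in HP, so that the stages overlapped. No locus passed in any of the 4 comparisons of adjacent stages (limma; 0% of 18343 to 18635 windows; 433 to 773 of them had an unadjusted p under 0.05). The lowest unadjusted p of the loci was that of Fosb from HE2 to HP, with means of 5.72 ± 3.39 and 11.3 ± 4.99 per 10000 (SD, 5 replicates each). Its log2 change was 1.13 ± 0.51 (SE; limma adjusted p = 0.999). The HP mean includes replicate 5, at 20.0 with 9 fragments.

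**Figure D3:**
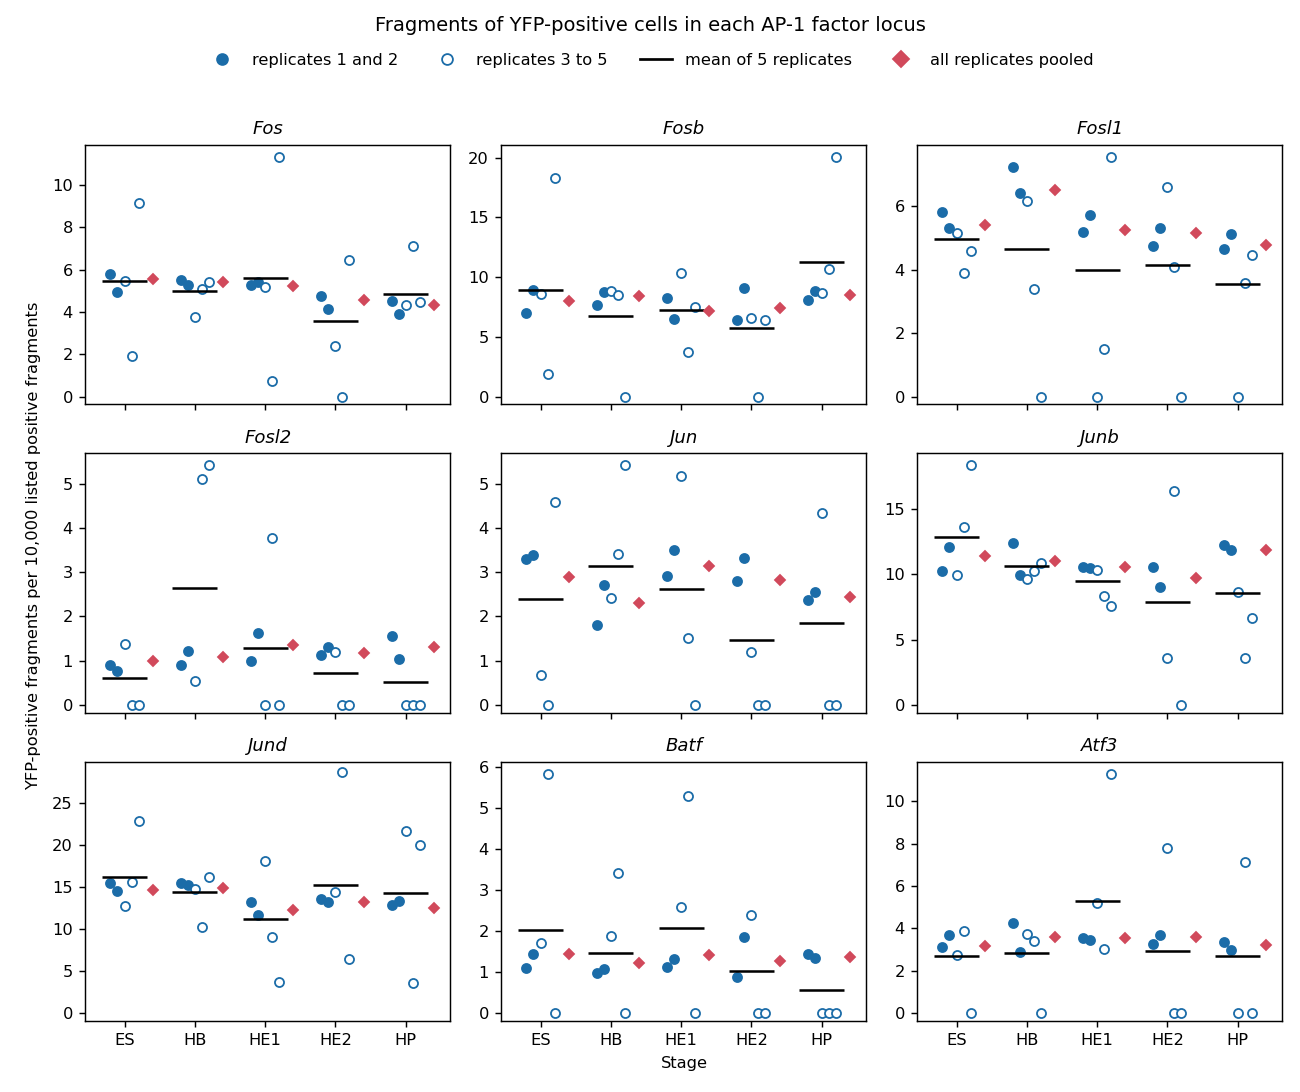
Each panel is a locus, with the 5 stages on the x axis and positive fragments per 10000 listed positive fragments on the y axis; filled circles are replicates 1 and 2, open circles replicates 3 to 5, bars the mean of the 5 replicates and diamonds the value pooled over replicates. The filled circles and diamonds vary little between stages, while the open circles spread from 0 upwards.

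The spread was widest in the shallow replicates. Of the 225 values of the 9 loci in positive cells (5 stages, 5 replicates), 37 were 0, and all 37 were in replicates 3 to 5. With replicates 1 and 2 alone, the 36 changes of the loci between adjacent stages lay between -0.43 (Jun, ES to HB) and 0.38 (Jun, HB to HE1) on the log2 scale, with a median size of 0.09. None passed (lowest adjusted p = 0.179, limma, n = 2 per stage). In the same 4 comparisons 213, 270, 0 and 420 other windows were called, a small share of the 21938 windows drawn. The lack of a call among 9 loci is therefore not read as a result about them. In counts simulated for positive against Negative cells at HE1, a 4-fold change was recovered in 37 of 200 changed windows by the 5 replicates and in 200 of 200 by replicates 1 and 2 alone, and a 2-fold change in 0 and in 65 of 200. The changed windows were drawn from those at or above the median count, and counts varied by Poisson counting error alone. Real lists can vary more, and Batf and Fosl2 lay below the median window, so recovery can be lower for such loci. No comparison of adjacent stages was simulated. The shares are therefore not read as recovery in those comparisons.

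Between high and low YFP gates no difference of a locus was detectable either. Medium, High and Medium/High lists together were compared with Low lists of the same stage, and none of the 9 loci nor any other window passed (limma; 0% of 16353 to 17883 windows; 107 to 354 of them had an unadjusted p under 0.05). Junb at HB had 11.1, 10.9, 9.93, 9.65 and 20.2 fragments per 10000 in the high gates and 13.2, 7.46, 0, 10.8 and 0 in the Low gate, a log2 change of 1.59 ± 0.68 (SE; limma adjusted p = 0.995). Jund at HE1 went the other way, with 13.7, 11.8, 10.0, 0 and 0 in the high gates and 13.3, 10.9, 25.9, 10.4 and 8.26 in the Low gate (log2 change -1.57 ± 0.65, limma adjusted p = 0.999). In both, the gate class with the lower mean had 2 values of 0 among replicates 3 to 5, and replicates 1 and 2 overlapped between gates.

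At the level of single sites, 46 to 98 of the 218 sites had enough listed fragments (a fragment in at least 4 of the 10 lists) to be tested in a comparison, and none passed in any of the 14 comparisons. Over all sites the same tests called 0% in 13 comparisons and 0.00558% (1 of 17917 sites, not of these loci) from ES to HB. Among the 1078 tests of the loci's sites 9 had an unadjusted p under 0.05, or 0.835%, against 1.03% over all sites. They include the Junb site 2.1 kb downstream of the start, which at HP had a replicate mean of 3.28 per 10000 in positive and 0.169 in Negative cells (log2 change 1.62 ± 0.71, limma adjusted p = 0.999). Pooled, it had 30 of 250545 positive and 2 of 77071 Negative fragments at HP. At HB it had 20 of 259299 and 11 of 86872, so that the Negative rate was the higher one there.

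Sites were listed at more stages here than elsewhere. Of the 209 sites with a positive fragment, 84 (40.2%) had one at all 5 stages and 58 (27.8%) at only 1, against 23.5% and 39.4% over all 72897 such sites of the series; the loci's sites also held more fragments, which bears on this share and was not corrected for. Among sites with at least 20 positive fragments, 9 of 76 were missing from at least 1 stage, against 2030 of 13793 (14.7%) over the series. Such sites at 1 or 2 stages numbered 97 in the series and 3 in these loci; these 3 were chosen after their values were seen.

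The first of the 3 was the Fosl2 site 2.7 kb upstream of the start (chr5:32132866-32133627), with 10 positive fragments at HB and 15 at HE1 and none at ES, HE2 or HP. The second was the Fos site 18.3 kb downstream (chr12:85492000-85492569), with 18 at HE1 and 8 at HE2 and none elsewhere. The last was a site 41.6 kb downstream of Fosl1 (chr19:5488497-5489457), 95 bp from the start of Mus81, with 21 at HB, 2 at HE2 and none elsewhere, and it holds 2 CArG box matches. By replicate, the Fosl2 site had 2.23 ± 2.77 per 10000 at HB in 4 of 5 replicates and 0 in all 5 ES replicates; since it was chosen for this gap, no test is given. The Junb start also lacked positive fragments at ES, with 18, 25, 20 and 10 at HB, HE1, HE2 and HP, and so did the Atf3 site 84.9 kb downstream, with 20, 25, 25 and 15.

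Where a site had no positive fragment at a stage, it had no Negative fragment either. This held for all 17 combinations of site and stage among the 9 sites. Over the series, 3014 combinations of a site with 20 or more positive fragments and a stage lacked a positive fragment, and a Negative fragment was listed in 1.06% of them, whereas a Negative fragment was listed in 73.8% of the 950 combinations with only 1 or 2 positive fragments. The integrated pSKB plasmid library of the stage did hold such sites, in 92.9% of the 3014 combinations and in all 17 of these loci: the Fosl2 site had 18, 34, 48, 19 and 7 distinct pSKB fragments from ES to HP, the Fos site 7, 10, 7, 3 and 1, the Fosl1 site 54, 77, 58, 56 and 57, and the Junb start 27, 39, 76, 70 and 38. The deposited lists were kept to open chromatin peaks, so a site missing from both classes of a stage gives no reading of reporter activity there; the part of that step in these gaps was not tested.

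**Figure D4:**
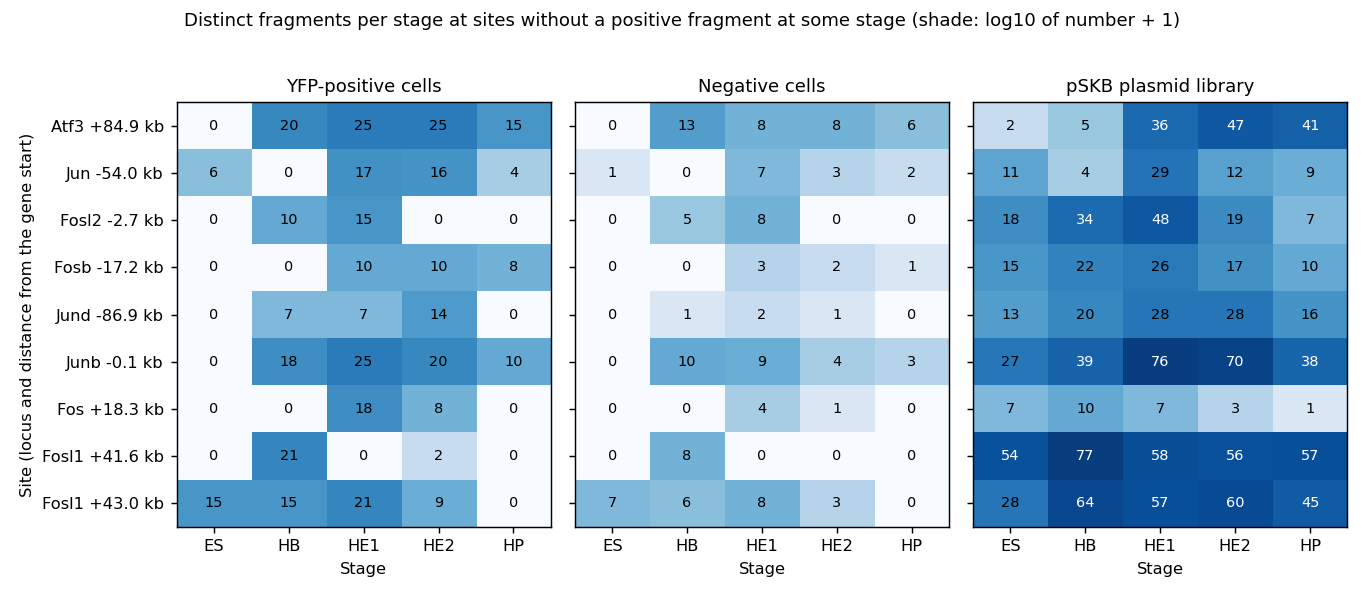
The rows are the 9 sites of the loci with at least 20 positive fragments and none at some stage, the columns the stages, and each cell gives the number of distinct fragments in positive cells (left), Negative cells (middle) and the pSKB plasmid library (right), shaded on a log10 scale. Each cell without a positive fragment also lacks a Negative one, and the plasmid library holds fragments in every cell, from 1 to 77.

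The plasmid libraries gave the loci a similar order. Over the 10 plasmid lists (pDONR before and pSKB after transfer to the integration vector, 1 each per stage), Jund had 8.95 fragments per 10000, Junb 7.11, Fosb 5.73, Fosl1 4.98, Atf3 2.90, Fos 2.66, Fosl2 1.85, Jun 1.81 and Batf 1.64. Against this input, the sorted lists held Fos 1.88-fold as often in positive and 1.96-fold as often in Negative cells, above 97.1% of 19792 windows, whose median was 1.11. The ratio for positive cells was 1.53 in Junb, 1.51 in Jund and Jun, 1.38 in Fosb, 1.18 in Atf3 and 1.09 in Fosl1, and it was below 1 in Batf (0.821) and Fosl2 (0.643). Positive and Negative cells were on the same side of 1 in each locus. Since the sorted lists were restricted to peaks and the plasmid lists were not, this ratio also depends on how much of a window is open chromatin.

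**Figure D5:**
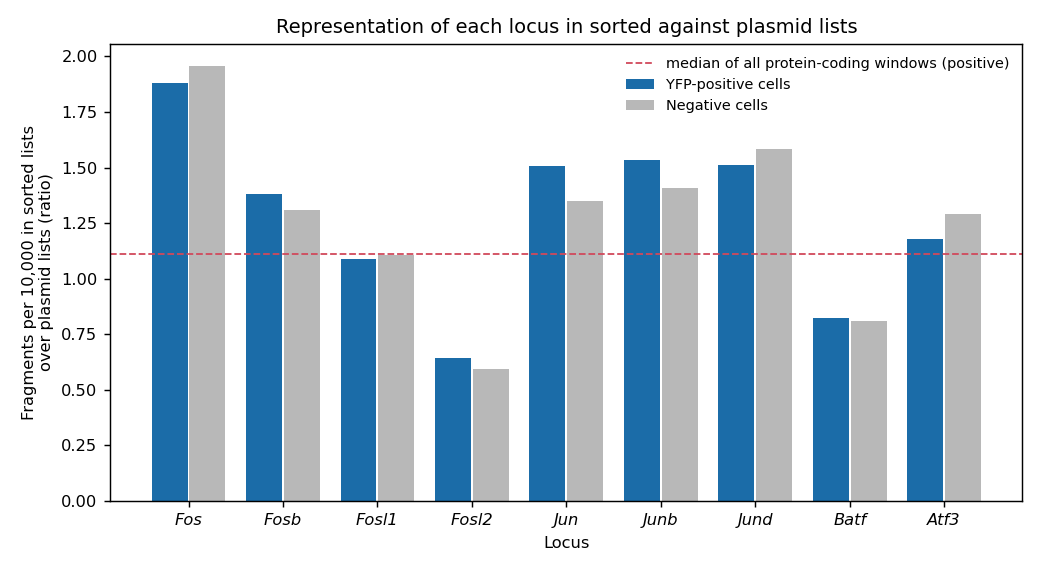
Bars give, for each locus, the rate of fragments per 10000 in positive (blue) and Negative (grey) lists, pooled per stage and averaged over 5 stages, divided by the mean rate in the 10 plasmid lists; the dashed line is the median of 19792 protein-coding windows, 1.11. Fos has the tallest pair, at 1.88 and 1.96, and Fosl2 the lowest, at 0.643 and 0.591.

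Of the distinct fragments of the loci 79.2% were identical to a plasmid fragment, against 80.5% of all fragments, and 96.3% matched one within 5 bp at either end. Of the 5971, 18 were also in the PCR control lists of HM-1 cells, against 3731 of all 1176712 fragments (0.317%). The authors had filtered the sorted lists against these controls and against the plasmid libraries. Neither share is therefore read as a result about the loci.

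AP-1 letters were about as common in the AP-1 factor loci as elsewhere. TGACTCA, on either strand, was found in 32 of the 218 sites (14.7%), against 12.5% of all sites and 13.4% of sites within 10% of the same length. Of the 24 Fos sites 1 held it and of the 13 Fosl2 sites 5 did. CRE letters were found in 3 sites (1.38%, against 1.26% of all sites and 1.87% of sites of like length), among them the Jund start, and CArG boxes in 9 (4.13%, against 1.85% of all and 2.3% of sites of like length). The CArG sites included the starts of Fos and Fosb, the Fos site 12.2 kb downstream and the Junb site at the end of the gene. The ETS letters CCGGAA were in 23.4% (19.8% of sites of like length), the TEAD letters GGAATG in 23.4% (26.8%), the GATA letters AGATAA in 15.6% (19.4%) and the RUNX letters TGTGGT in 32.1% (31.0%).

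Other genes of the pathway were not called, and nor was any window of the series (0 of 249912 window tests), so this is no result about the pathway. The genes were 13 other basic leucine zipper partners (among them Jdp2, Maf and Nfe2l2), 13 genes upstream of AP-1 (MAP kinases, Srf and its cofactors) and 8 other immediate early genes (such as Ier2, Egr2 and Myc). In positive against Negative cells at ES and at HP, 12 of the 13 partners had enough listed fragments to be tested. Their windows held a median of 401, 449 and 561.5 positive fragments. Over the 25 combinations of stage and replicate, the window on another chromosome whose log2(rate + 1) followed Jund most closely was that of Gng5 (Pearson r = 0.79), for Junb it was Styxl1 (r = 0.87) and for Fosb Zfp384 (r = 0.84); these points share the depth of each replicate.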

How the data were processed

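Sorted and plasmid fragment lists were analysed as deposited. The authors had trimmed reads (Trim Galore), aligned them to mm10 with Bowtie2, kept a mapping quality of 40, removed duplicates and filtered fragments against HM-1 PCR controls, plasmid libraries and open chromatin peaks; SAMtools, bedtools and HOMER are also named in the submitters' processing notes. The sorted lists hold coordinates without read numbers; the plasmid lists deposited by the authors also hold a read count per fragment. Inserts were amplified in 25 to 30 PCR cycles without molecular identifiers. SDs and SEs come from the spread between replicate lists and do not separate amplification from other sources of spread. Labels do not say that replicates are separate cultures, so p-values measure the spread between these samples.

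Sorted starts were moved by 1 bp to match the plasmid lists. Distinct fragments per window (GENCODE vM21; gene body and 100 kb each side) and per merged site were expressed per 10000 listed fragments. A window or site was tested where 4 or more of the 10 lists held a fragment of it, with limma 3.58.1 (R 4.3.3) on log2(rate + 1), with a trend, and Benjamini-Hochberg adjustment over all windows or sites (threshold 0.05); this was tested on simulated counts. No fragment lay past the end of a reference chromosome. Annotation and sequences came from GENCODE and the RefSeq copy of GRCm38. Named were all loci, their start sites, largest distal sites and sites past the threshold. Loci, lists and tests were chosen with earlier results of these data known. Same-numbered replicates deviated together (every pair's r over 0.1) in 2 of 14 comparisons, so no block was used. Alternatives changed the pseudocount (0.25), the filter, the window (50 kb), the gates, the replicates and the fragments used.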

Additional observations from a re-analysis of the deposited data

Results flagged for a closer look

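In 18 of 90 groups of 5 replicates (9 loci, 5 stages, positive and Negative cells) the highest or the lowest value stood apart from the other 4 by a gap of more than 0.71 of the range. For normal values of equal spread about 1 in 20 groups would show such a gap. The lists here differ widely in depth and many values are small counts, so that rate is no yardstick for the 18. In 17 of the 18 the value that stood apart was in replicates 3 to 5, whose lists are short, and their part in these values was not tested.

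In positive cells the values per 10000 that stood apart were Atf3 at HE1 in replicate 5 (11.3, 3 of 2655 fragments, the others at 3.02 to 5.17), Fos at HB in replicate 3 (3.75, 14 of 37381 fragments, the others at 5.1 to 5.5), Fos at HP in replicate 4 (7.13, 2 of 2805 fragments, the others at 3.9 to 4.5), Fosb at HB in replicate 5 (0, 0 of 1848 fragments, the others at 7.64 to 8.83), Fosb at HP in replicate 5 (20.0, 9 of 4493 fragments, the others at 8.12 to 10.7), Jund at ES in replicate 5 (22.9, 5 of 2185 fragments, the others at 12.7 to 15.6) and Jund at HB in replicate 4 (10.2, 6 of 5877 fragments, the others at 14.7 to 16.2).

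In Negative cells they were Atf3 at HE1 in replicate 5 (17.1, 2 of 1169 fragments, the others at 2.92 to 6.06), Atf3 at HE2 in replicate 4 (19.6, 3 of 1528 fragments, the others at 0 to 4.85), Batf at ES in replicate 5 (11.4, 1 of 880 fragments, the others at 0 to 2.57), Fos at HP in replicate 5 (0, 0 of 818 fragments, the others at 4.44 to 5.41), Fosb at ES in replicate 5 (45.5, 4 of 880 fragments, the others at 0 to 9.08), Fosl2 at HE1 in replicate 4 (12.1, 2 of 1651 fragments, the others at 0 to 2.92), Fosl2 at HE2 in replicate 2 (1.35, 5 of 37101 fragments, the others at 0 to 0.285), Jun at ES in replicate 5 (11.4, 1 of 880 fragments, the others at 0 to 3.17), Jun at HE2 in replicate 3 (13.9, 1 of 720 fragments, the others at 0 to 3.14), Junb at HE1 in replicate 4 (0, 0 of 1651 fragments, the others at 8.55 to 11.7) and Junb at HE2 in replicate 5 (36.0, 4 of 1111 fragments, the others at 9.7 to 13.9).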

How the results depend on the processing

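None of the 9 loci was called in any of the 14 comparisons by the main setting, and this held under every alternative tried except array weights, which called 1 locus (Jund, HB to HE1). Leaving out each replicate called 0 loci and 0 sites of the loci in each comparison (range 0 to 0). With replicates 1 and 2 alone, sites of the loci were called in 6 comparisons, and in each the share was below that of all sites tested: 5 of 100 (all sites 8.04%) and 2 of 111 (7.48%) in positive against Negative cells at ES and HB, 11 of 119 (13.2%) and 9 of 132 (17.9%) in ES to HB and HB to HE1, and 5 of 92 (6.66%) and 1 of 107 (6.23%) in high against low gates at ES and HB. In all 33 calls a group was at 0, so that the site passed the filter through the other group alone, and nothing is read from them. Array weights, whose iteration stopped before convergence for some fits, called 18 of 86 sites (all sites 17.1%) and 52 of 67 (79.4%) in positive against Negative cells at HE1 and HE2, 2 of 96 (0.893%) and 1 of 93 (0.591%) in ES to HB and HB to HE1, and 57 of 79 (70.8%) in high against low gates at HB. The Jund call stood beside 6.33% of all windows. Over all features, the main setting called 0 windows and 1 site. Array weights called up to 1168 windows and 10445 sites in a comparison, replicates 1 and 2 alone up to 420 and 6554, leaving out replicate 5 up to 28 and 14, leaving out replicate 4 up to 9 and 2, leaving out replicate 1, 2 or 3 up to 1 window, the 50 kb window up to 10, no filter up to 6 sites, 0.25 as pseudocount up to 2 sites, and plasmid-identical fragments or sites merged within 100 bp 1 site. Distal fragments only, the replicate block, the High gates alone and leaving out 4 HE1 lists called 0 windows.

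Of 13 log2 changes followed, 4 of 137 values under alternatives reversed and 6 passed the threshold, at 3 sites: the Junb site 34.7 kb upstream (ES, positive against Negative) with replicates 1 and 2, the Junb start (ES to HB) with array weights, and the Fosl1 site 41.6 kb downstream (ES to HB, HB to HE1) with either. In each of the 6 a group was at 0 in the lists used. The site thus passed the filter through the other group alone, and nothing is read from these values, with array weights or without. With replicates 1 and 2 alone, Jund at HP in positive against Negative cells became -0.35, Jund at HE1 in high against low gates 0.070 and the Fosl2 site 2.7 kb upstream at HB in high against low gates 0.25; with array weights, Jund at HP became -0.14. The share of locus fragments found in a plasmid list, 79.2%, was 61.6% for plasmid fragments of at least 2 reads, 39.8% for pSKB lists and 96.3% within 5 bp. AP-1 letters, in 14.7% of whole sites, were in 7.34% of 200 base windows (8.70% of those of all sites). The replicate block (paired by replicate number) called 0 loci and 0 sites of the loci in each comparison, as did the main setting. Pair correlations ran from -0.02 to 0.41. Of the mean levels, 21 of 45 moved by more than 1 SD with distal fragments only, 12 with 50 kb and 2 when pooled. In counts simulated for windows in positive against Negative cells at HE1, 5 replicates recovered 0 of 200 2-fold changes and replicates 1 and 2 alone 65. Those windows were at or above the median count, and only counting error was simulated.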
